A study of Mus musculus with 14 samples.

Results

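The clustered protocadherins are a family of neuronal adhesion genes on mouse chromosome 18, and their members were taken from the deposited counts as the rows on that chromosome whose names start with Pcdha, Pcdhb or Pcdhg. There were 59 members of 24421 genes, of which 15 belong to the alpha, 22 to the beta and 22 to the gamma cluster. RNA came from the hippocampus of 7 mice labelled LPAR2-/- and 7 wild-type (WT) mice, 1 library per mouse. The labels and the study's methods name the hippocampus, while its results name the dentate gyrus, so the dissected region is not certain. All were naive males of strain 129.C57Bl6, labelled 10 to 12 weeks old, although the deposited description calls them middle aged or older. LPAR2-/- mice carry a deletion of the latter part of exon 2 of Lpar2, a receptor for lysophosphatidic acid, and the controls, of mixed C57BL/6 and 129/SvJ descent, were bred separately from these homozygotes. Genotype and colony therefore cannot be told apart. The comparison asks which transcripts of the resting hippocampus differ between these groups of mice.

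Clustered protocadherins give each neuron a molecular identity at its surface. In the alpha and gamma clusters, every member has its own promoter and a large first exon that encodes the extracellular domains, spliced to constant exons shared by the whole cluster, whereas beta genes have a single exon and no constant region. Neurons switch on a few alternate members each, through promoter choice that depends on CTCF and cohesin, whereas the C-type members Pcdhac1, Pcdhac2, Pcdhgc3, Pcdhgc4 and Pcdhgc5 are regulated separately. Proteins on facing membranes bind only matching isoforms, and the family is known for dendrite self-avoidance, neuron survival and synapse formation. In bulk tissue such as this, fewer cells with a member and less of its RNA per cell cannot be told apart.

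The libraries held 15434620 to 23258949 counts. Lpar2 itself stood at 144 to 234 counts in the mice labelled LPAR2-/- and at 27 to 66 counts in WT mice (log2 fold change 2.01, edgeR adjusted p = 8.22e-07). The counts cover the whole gene, not the deleted stretch alone, so this value goes against the label but does not test the deletion, and every direction below is that of the mice labelled LPAR2-/- relative to WT. Summed neuron markers overlapped between the groups, at 6740 to 8340 CPM (counts scaled to a library of 1e+06) against 7060 to 8500 CPM. Those of hippocampal subfields overlapped too, at 620 to 759 CPM against 596 to 815 CPM, but the sum hides wide spreads of single markers. Over all mice Fibcd1 ran from 416 to 3383 counts and Mpped1 from 307 to 2769 counts. Of the 10 subfield markers, 0 were called by edgeR. Summed choroid plexus markers were 291 CPM in LPAR2-/- mouse 2 and 29.0 to 52.6 CPM in the 13 other mice. Summed oligodendrocyte and precursor markers were 3510 CPM in LPAR2-/- mouse 3 and 907 to 1860 CPM in the others. Meningeal fibroblast markers summed to 70.4 to 394 CPM in the mice labelled LPAR2-/- and to 50.4 to 278 CPM in WT mice. Of these 7 markers, 5 had an unadjusted p under 0.05 with edgeR, all of them higher than in WT mice. Over the list the median log2 fold change was 1.00, and Lum, a matrix proteoglycan, was called (log2 fold change 0.54, adjusted p = 0.0132). Summed striatal neuron markers were above the highest WT mouse in 6 of 7 mice labelled LPAR2-/-, at 67.1 to 77.8 CPM against 57.7 to 68.2 CPM. The part of these tissues in the results below was not tested.

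The 59 members lie between positions 36930285 and 37841872 of chromosome 18 (mm10), all on the plus strand, in the order alpha, beta, gamma. How much of a member could be counted depended on its exons, because reads that overlapped several genes were not assigned. All 22 beta genes had 100% of their exon bases to themselves. The 22 gamma members had 52.8% to 58.3% of theirs, since the 3 gamma constant exons of 59, 89 and 1970 bases belong to 23 of the 59 rows. These are the 22 gamma members and Pcdha7-g, a gene model that joins an alpha first exon to the gamma constant exons. For 11 alpha members the own share was 45.1% to 47.3%. Pcdha4, Pcdha6 and Pcdha7 had no base of their own, because models of this joined kind cover their first exons, and each was listed at 0 counts in all 14 mice. A count of 0 therefore says nothing of the level of these 3 genes. The constant exons also went uncounted, so the alpha and gamma values describe first exons and not total alpha or gamma RNA.

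Of the 59 members, 53 passed the filter on low counts, namely 10 alpha, 21 beta and 22 gamma members. The remaining 6 were the 3 alpha genes without own bases, Pcdha7-g with 4 counts over all mice, Pcdha8 with 66 counts and Pcdhb1 with 13 counts. Parts of the first exons are also alike. Of all 50-base windows of a first exon, a median of 15.4% in alpha, 4.6% in beta and 0.750% in gamma members occurred word for word in another member.

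Levels per length, as CPM per kilobase of own bases, were led in both groups by 2 gamma C-type members. In WT mice Pcdhgc5, which is known at inhibitory synapses, stood at 50.1 ± 2.43 CPM per kb (SD, n = 7), and Pcdhgc3, known for promoting dendrite branching, at 30.7 ± 1.63 CPM per kb. Pcdhga11 followed at 11.4 ± 0.653 CPM per kb and Pcdhac2, known in serotonergic axon spacing, at 8.70 ± 1.44 CPM per kb. Next came Pcdhga3 at 7.40 ± 1.07 CPM per kb, and then Pcdhb9 at 6.40 ± 0.291, Pcdhga12 at 6.35 ± 0.484 and Pcdhb17 at 6.31 ± 0.508 CPM per kb, of which the last 3 differed by less than 1 SD. This order depends on the length used. Per kilobase of the deposited length, shared exons included, Pcdhgc5 and Pcdhgc3 stayed first, but Pcdhb9 and Pcdhb17 took ranks 3 and 4, and Pcdhga11 and Pcdhac2 ranks 5 and 6. Pcdhgc4, which is required for the survival of many neurons, was below the other gamma C-type members at 3.29 ± 0.390 CPM per kb. The median over tested members was 0.955 CPM per kb in the alpha, 1.73 in the beta and 4.23 in the gamma cluster. The 3 gamma C-type members together took 50.2% of all gamma CPM of WT mice, and Pcdhac1 and Pcdhac2 took 57.3% of alpha CPM.

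**Figure D1:**
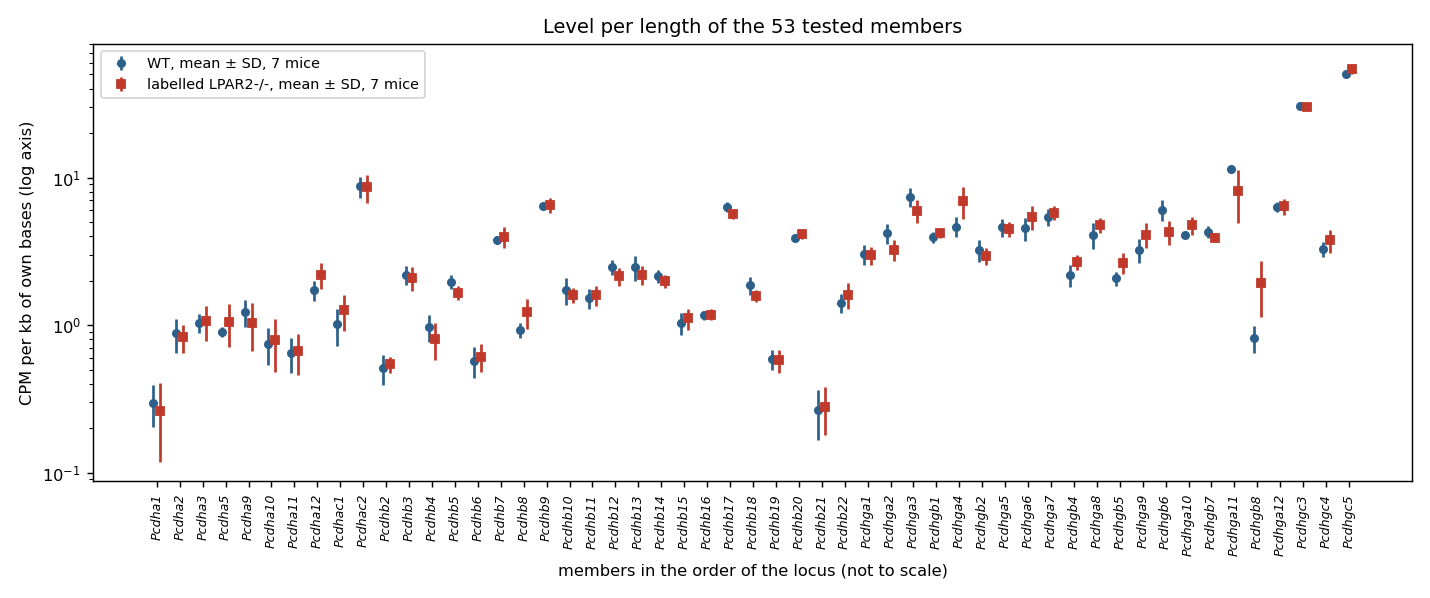
Level of the 53 tested members in CPM per kilobase of own bases (log axis), in the order of the locus, as mean and SD of 7 WT mice (blue circles) and 7 mice labelled LPAR2-/- (red squares). Pcdhgc5 and Pcdhgc3 stand highest in both groups, Pcdha1 and Pcdhb21 lowest.

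Summed over its members, no cluster separated the groups. Gamma members summed to 426 to 443 CPM in WT mice, median 433, and to 433 to 456 CPM in the mice labelled LPAR2-/-, median 447. Beta members summed to 141 to 165 CPM in WT mice and to 138 to 161 CPM in the others. Alpha members summed to 38.0 to 51.4 CPM in WT mice and to 31.6 to 54.5 CPM in the mice labelled LPAR2-/-. The ranges of the groups overlapped in each cluster. The lowest alpha sums were those of LPAR2-/- mouse 6 at 31.6 CPM and LPAR2-/- mouse 7 at 32.8 CPM, and in each of these mice 6 of 10 tested alpha members were among the 3 lowest values of all 14 mice.

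**Figure D2:**
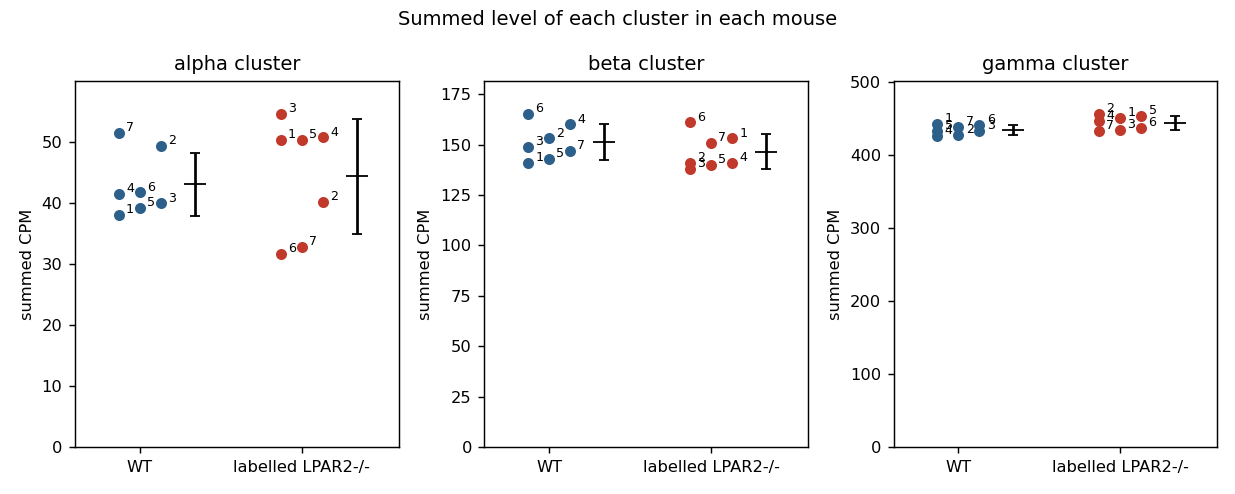
Summed CPM of the alpha, beta and gamma members in each mouse, with axes starting at 0, WT mice in blue and mice labelled LPAR2-/- in red, mouse numbers beside the points, and mean and SD at the right of each group. Gamma sums stay between 426 and 456 CPM, while LPAR2-/- mice 6 and 7 have the lowest alpha sums.

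Of the single members, 3 of 53 tested members differed between the groups, all of them alternate gamma members. Pcdhgb8 and Pcdhga4 were higher and Pcdhgb6 was lower in the mice labelled LPAR2-/- (edgeR quasi-likelihood F test, adjusted p under 0.05). They are 5.66% of the tested members, near the 6.77% called among the 14897 genes tested. In the higher direction 2 of 53 were called, against 3.32% of all genes, and in the lower direction 1 of 53, against 3.46%. At an unadjusted p under 0.05 there were 15 of 53 members (28.3%), against 22.4% of all genes. The median log2 fold change was 0.06 over the tested members and 0.00 over all genes, and 39 of the 53 were within 0.25 of 0 in either direction. By cluster the median was 0.06 in alpha, 0.01 in beta and 0.09 in gamma.

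**Figure D3:**
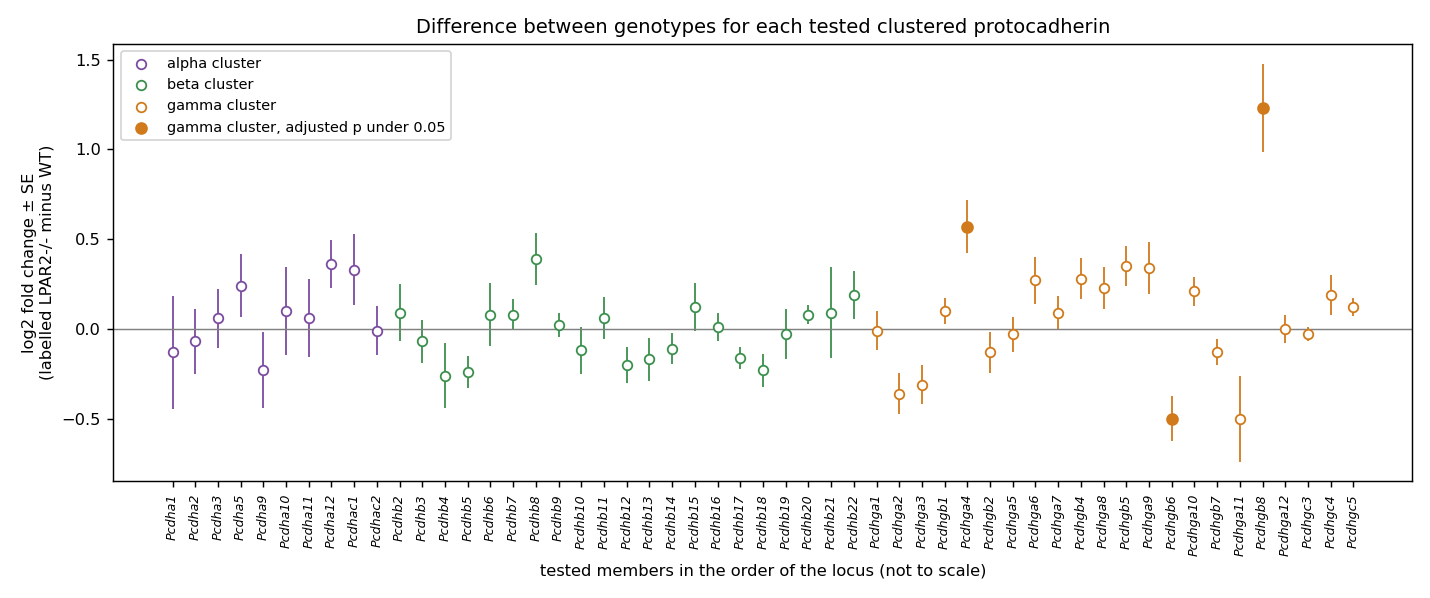
Log2 fold change (mice labelled LPAR2-/- minus WT, 7 against 7) with its standard error for the 53 tested members in the order of the locus, coloured by cluster, filled where the adjusted p was under 0.05. Pcdhgb8 stands highest at 1.23, Pcdhga4 is filled at 0.57 and Pcdhgb6 at -0.50, and the alpha and beta members hold no filled point.

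Pcdhgb8 showed the largest difference of the family. In WT mice it ranged from 1.51 to 2.70 CPM with a median of 2.05, or 32 to 54 counts. In the mice labelled LPAR2-/- it stood at 5.13, 1.79, 4.94, 4.74, 3.58, 8.30 and 5.18 CPM in mice 1 to 7. Of these, 6 of 7 lay above every WT mouse, mouse 2 lay among the WT values, and mouse 6 was highest. The log2 fold change was 1.23 (SE 0.246, 2.34-fold, edgeR adjusted p = 0.00869). It was called in all 14 fits that each left out 1 mouse, with log2 fold changes of 1.05 to 1.37.

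Pcdhga4 was 8.93 to 13.2 CPM in WT mice, with a median of 12.2. In mice labelled LPAR2-/- it was 17.3, 9.99, 17.8, 16, 15.6, 24.0 and 16.2 CPM in mice 1 to 7, and again 6 of 7 exceeded every WT mouse, mouse 2 did not, and mouse 6 was highest. The log2 fold change was 0.57 (SE 0.148, 1.48-fold, adjusted p = 0.0322 by edgeR). The call was lost without LPAR2-/- mouse 1 (adjusted p = 0.0630) or 4 (0.0503), and without WT mouse 2 (0.0551), 4 (0.0642), 5 (0.0718) or 6 (0.0666), with log2 fold changes of 0.46 to 0.66 over all 14 such fits.

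Pcdhgb6 went the other way. It was 12.6 to 20 CPM in WT mice, with a median of 15.7, and 10.6, 12.9, 10.1, 12.4, 11.6, 6.87 and 12.2 CPM in LPAR2-/- mice 1 to 7. Of these, 6 of 7 were below every WT mouse, mouse 2 was above the lowest WT mouse, and mouse 6 was lowest. The log2 fold change was -0.50 (SE 0.127, edgeR adjusted p = 0.0264). Without LPAR2-/- mouse 1 the adjusted p was 0.0548, and without WT mouse 3, 4, 5 or 6 it was 0.0535, 0.0526, 0.0526 or 0.0549, while the log2 fold change stayed between -0.55 and -0.42.

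Pcdhga11, the most abundant alternate gamma member, did not pass the test and showed a wide spread between the mice labelled LPAR2-/-. In WT mice it was 27.0 to 32.2 CPM, with a median of 29.5. In LPAR2-/- mice 1 to 7 it was 19.4, 32.8, 24.0, 21.4, 23.7, 5.49 and 19.5 CPM. Here, too, 6 of 7 lay below the WT range, with mouse 6 at the extreme, while mouse 2 was above the highest WT mouse. The SD of log2 CPM was 0.816 in the mice labelled LPAR2-/- and 0.0823 in WT mice, and without mouse 6 the first of these was 0.28. The log2 fold change was -0.50 (SE 0.239, 95% interval -1.02 to 0.02, edgeR adjusted p = 0.233).

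**Figure D4:**
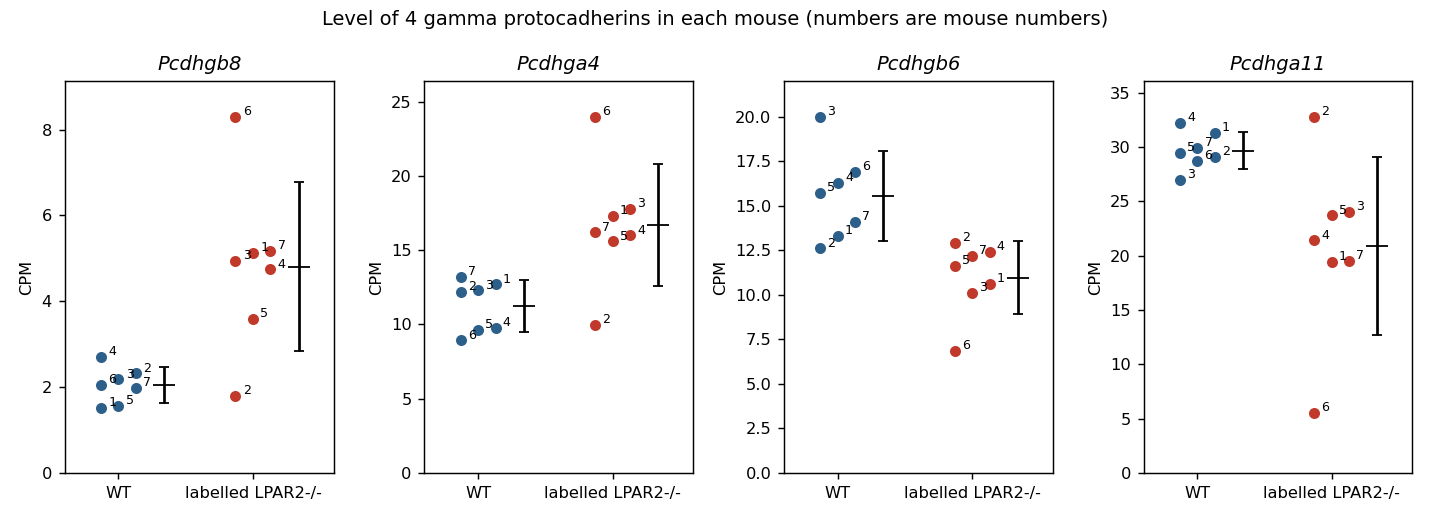
CPM of Pcdhgb8, Pcdhga4, Pcdhgb6 and Pcdhga11 in each mouse, with axes starting at 0, WT in blue and mice labelled LPAR2-/- in red, mouse numbers beside the points, and mean and SD at the right of each group. In each panel LPAR2-/- mouse 2 lies at or close to the WT mice and LPAR2-/- mouse 6 lies farthest from them.

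The same 2 mice marked the ends of all 4 patterns. Among the 7 mice labelled LPAR2-/-, log2 CPM of Pcdhgb8 and Pcdhga4 had a Pearson r of 0.97 (Spearman rho 0.86), and Pcdhgb8 and Pcdhga11 had an r of -0.80 (rho -0.86). With the 2 mice farthest from the median left out, mice 2 and 6 in both cases, these were 0.61 and -0.63 over 5 mice. In the 7 WT mice, r was -0.12 and -0.02 for the same pairs. For Pcdhga4 and Pcdhgb6, r was -0.82 in the mice labelled LPAR2-/- (rho -0.89, and r -0.89 over 5 mice without mice 2 and 6) and -0.38 in WT mice. For Pcdhgb6 and Pcdhga11, r was 0.92 in the mice labelled LPAR2-/- (rho 0.54, and r 0.63 over 5 mice without mice 3 and 6) and -0.51 in WT mice. These values are descriptions of members that share a library and its scaling, and the pairs were chosen after their values were seen. LPAR2-/- mouse 2 was also the mouse with 291 CPM of choroid plexus markers, and any link with its gamma values was not tested. Mouse 2 marked the WT end of each pattern, so leaving it out must enlarge all 4 differences.

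None of the 53 tested members had groups that did not overlap, against 1.77% of all genes tested. This count turned on LPAR2-/- mouse 2. Without it, the groups no longer overlapped for 5 members, Pcdhga4, Pcdhga9, Pcdhgb6, Pcdhga11 and Pcdhgb8, against 2.4% of all genes tested in that fit. For each of these members, mouse 2 was the only mouse labelled LPAR2-/- not beyond the WT range in the direction of the difference. It was singled out after its values were seen, so the loss of overlap follows from that choice and the 2.4% is no matched background. Leaving out LPAR2-/- mouse 6 left the count at 0. Without mouse 2, Pcdhgb8 had a log2 fold change of 1.37 (edgeR adjusted p = 0.000505), Pcdhga4 of 0.66 (0.00438), Pcdhgb6 of -0.55 (0.0269) and Pcdhga11 of -0.64 (0.123). Without mouse 6 they were 1.05 (0.0117), 0.46 (0.0462), -0.42 (0.0254) and -0.34 (0.0624).

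These members lie at different places of the gamma cluster. The first exon of Pcdhgb8 lies at 37761801 to 37764299 on chromosome 18 (mm10), directly after that of Pcdhga11 at 37755773 to 37758367, with 3433 bases between them. Pcdhgb6 lies upstream at 37742094 to 37744658, with 2 members between it and Pcdhga11, and Pcdhga4 at 37685400 to 37687817, with 12 members between it and Pcdhgb8. Among 50-base windows of the first exon, 9.20% of Pcdhgb8, 11.9% of Pcdhgb6, 0.900% of Pcdhga4 and 0% of Pcdhga11 also occur in another member. Pcdhgb8 shares most of these with Pcdhgb2 and Pcdhgb6 with Pcdhgb5. In 75-base windows the shares were 6.7% for Pcdhgb8, 6.3% for Pcdhgb6 and 0% for Pcdhga4 and Pcdhga11, and Pcdhgb8 shared most with Pcdhgb4. The placing of reads from such stretches was not tested.

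As a share of the 19 alternate gamma members, Pcdhga11 made up 13% to 15% in WT mice. In LPAR2-/- mouse 6 its share was 2.56%, in mouse 2 it was 15.8%, and in the other 5 it was 9.0% to 10.8%. Pcdhgb8 made up 0.689% to 1.26% in WT mice, 3.87% in LPAR2-/- mouse 6, 0.862% in mouse 2 and 1.6% to 2.51% in the others. The ratio of Pcdhga11 to Pcdhgb8 CPM was 11.9 to 20.7 in WT mice, 18.3 in LPAR2-/- mouse 2, 0.662 in mouse 6 and 3.77 to 6.62 in the other 5. The alternate gamma members together were 208 to 226 CPM in WT and 207 to 224 CPM in the mice labelled LPAR2-/-.

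**Figure D5:**
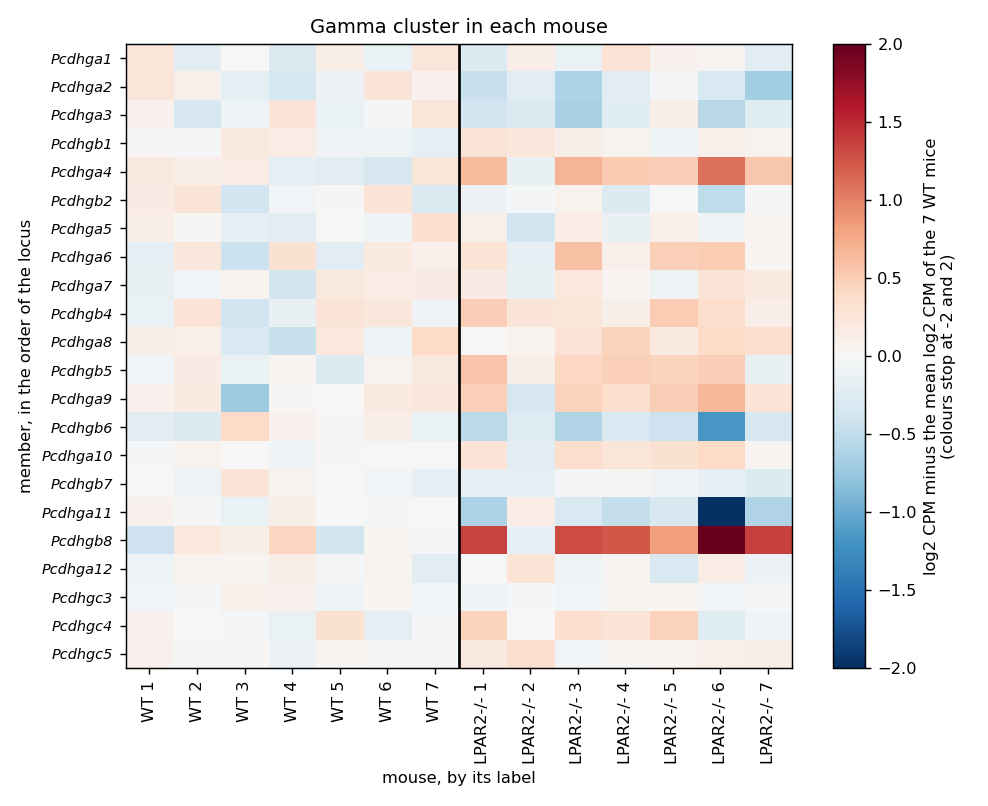
Log2 CPM of the 22 gamma members (rows, order of the locus) in each mouse (columns), minus the mean log2 CPM of the 7 WT mice, with colours that stop at -2 and 2 while values run from -2.43 to 2.05. Pcdhgb8 and Pcdhga4 are above and Pcdhgb6 and Pcdhga11 below the WT mean in all mice labelled LPAR2-/- but mouse 2, in which Pcdhgb6 alone keeps that direction.

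Of the gamma members 10 of 22 (45.5%) had an unadjusted p under 0.05, beside 22.4% of all genes tested. Pcdhgb5 (log2 fold change 0.35, edgeR adjusted p = 0.0669) and Pcdhga2 (-0.36, adjusted p = 0.0697) were next in order of p. Pcdhga3 (-0.31), Pcdhga10 (0.21), Pcdhgb4 (0.28) and Pcdhga9 (0.34) had edgeR adjusted p = 0.103, 0.133, 0.144 and 0.181. These 6 members were chosen for naming after their values were seen. Pcdhga10 was 9.35 to 10.4 CPM in WT mice and was above that range in 5 mice labelled LPAR2-/-, below it in mouse 2 at 8.50 CPM. Pcdhga12, which lies directly after Pcdhgb8 and is one of the more abundant members, had a log2 fold change of 0.00 (95% interval -0.17 to 0.18).

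No C-type member was called by edgeR, DESeq2 or limma-voom, beside 6.77%, 9.35% and 6.77% of all genes tested. With edgeR, 1 of 5 (20%) had an unadjusted p under 0.05, near the 22.4% of all genes. Pcdhgc3 was 74.0 to 84.2 CPM in WT and 74.3 to 81.8 CPM in the mice labelled LPAR2-/-, and its log2 fold change was -0.03 (95% interval -0.11 to 0.06). Pcdhgc5 was 119 to 138 CPM in WT and 125 to 162 CPM in the others, with a log2 fold change of 0.12 (95% interval 0.01 to 0.23, edgeR adjusted p = 0.166). Pcdhac2 had a log2 fold change of -0.01 (95% interval -0.31 to 0.29). Pcdhgc4 at 0.19 (95% interval -0.05 to 0.43) and Pcdhac1 at 0.33 (95% interval -0.10 to 0.75) did not pass the test either, and the interval of Pcdhac1 is wide.

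No alpha member was called by edgeR, DESeq2 or limma-voom, which called 6.77%, 9.35% and 6.77% of all genes tested. With edgeR, 1 of 10 had an unadjusted p under 0.05, beside 22.4% of all genes. That one, Pcdha12, was 3.56 to 5.10 CPM in WT and 4.20 to 6.93 CPM in the mice labelled LPAR2-/- (log2 fold change 0.36, SE 0.133, adjusted p = 0.118). Pcdha5 had a log2 fold change of 0.24 and Pcdha9 of -0.23, each with an interval that includes 0. Over the 45 pairs of tested alpha members, the median r of log2 CPM was 0.56 in the 7 mice labelled LPAR2-/- and 0.08 in the 7 WT mice. For beta pairs these medians were 0.08 and 0.19, and for gamma pairs -0.02 and -0.02. The alpha value of the mice labelled LPAR2-/- includes mice 6 and 7, each with 6 of 10 tested alpha members among the 3 lowest values. No r without these mice is given. All these pairs share their libraries and many alpha counts are low, and the values are a description only.

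No beta member was called by edgeR, DESeq2 or limma-voom either, beside 6.77%, 9.35% and 6.77% of all genes tested. With edgeR, 4 of 21 (19%) had an unadjusted p under 0.05, near the 22.4% of all genes. Pcdhb5 was 6.26 to 8.43 CPM in WT and 5.11 to 6.81 CPM in the mice labelled LPAR2-/- (log2 fold change -0.24, adjusted p = 0.111), with 5 of 7 below every WT mouse. Pcdhb17, among the most abundant beta members, was 19.1 to 23.1 CPM against 16.8 to 21 CPM (log2 fold change -0.16, adjusted p = 0.129). Pcdhb8 was 1.78 to 2.57 CPM against 2.02 to 4.16 CPM (log2 fold change 0.39, adjusted p = 0.115). Pcdhb9 at 0.02 (95% interval -0.13 to 0.17), Pcdhb20 at 0.08 and Pcdhb7 at 0.08 had differences close to 0, although Pcdhb7 spread from 11 to 18 CPM in the mice labelled LPAR2-/- and from 12.5 to 14.5 CPM in WT mice.

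Genes of promoter choice, of signalling and proteolysis, and of other adhesion and recognition families were taken from lists by role. Of 21 tested genes of promoter choice and chromatin, 2 were called, Mau2, a loader of cohesin (log2 fold change 0.60, adjusted p = 2.62e-08), and Tet3, which oxidises methylated cytosine (-0.19, adjusted p = 0.0496). Mau2 lies on chromosome 8 at 70016123 to 70042734 (mm10), 185 kb from Lpar2, so its value cannot be told apart from a difference between the colonies around the targeted gene. The 2 are 9.52% of that list, beside 6.77% of all genes, and DESeq2 called 3 of its genes and limma-voom 1. Of the 18 tested signalling partners and proteases, none was called by edgeR, DESeq2 or limma-voom, and 1 had an unadjusted p under 0.05. Of 10 delta protocadherins, relatives outside the clusters, edgeR and limma-voom called none and DESeq2 called 1, while 2 had an unadjusted p under 0.05. Among 13 tested classical cadherins and catenins none was called by these tools, with 4 at an unadjusted p under 0.05. Of 13 tested Dscam and other recognition molecules 1 was called, the atypical cadherin Fat4 (0.29, adjusted p = 0.00234). Over all genes tested DESeq2 called 9.35%, and 22.4% had an unadjusted p under 0.05 with edgeR. The median log2 fold changes of these lists were -0.06, -0.03, 0.02, 0.04 and -0.04, beside 0.00 for all genes.

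Of 36 tested genes within 1 Mb of the locus 3 were called (8.33%, against 6.77% of all genes). 1700086O06Rik was higher, with a log2 fold change of 0.49 (adjusted p = 0.00781), Apbb3, which encodes an adaptor of the amyloid precursor protein, was higher by 0.17 (adjusted p = 0.0313), and Spry4, an inhibitor of growth factor signalling, was lower, at -0.36 (adjusted p = 0.0203). None of the 36 had groups that did not overlap, beside 1.77% of all genes.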

How the data were processed

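Reads of rRNA-depleted total RNA (14 mice) were trimmed (cutadapt 1.18), mapped with STAR against mm10 and assigned to exons per gene (featureCounts 1.6.3, reverse strand) by the authors. The deposited values are counts. A deposited table of scaled counts that had lost decimal points was not used. R 4.3.3 with edgeR 4.0.16 was applied to all genes (filterByExpr, TMM, robust quasi-likelihood F test, 7 against 7, no covariates, Benjamini-Hochberg threshold 0.05), where the study's authors had used DESeq2 1.22.2. Values are CPM on TMM-scaled libraries, and log2 CPM has a prior count of 2. Intervals of 95% use the SE with 12 degrees of freedom. Own bases are exon bases in no other gene of the deposited annotation. Shared windows of 50 and 75 bases were searched in GENCODE M21 transcripts.

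Members and lists were chosen with earlier results of these data known. Named members were those past the threshold, the 4 most abundant and the 3 of smallest p in each cluster, and the C-type members, and of the other lists and the neighbours, genes past the threshold. Alternatives were DESeq2 1.42.0, limma-voom (limma 3.58.1), other scalings and filters, a replicate block and each mouse left out. The fits were tested on simulated data. Residual correlations of same-numbered mice were -0.33 to 0.31, with 3 of 7 over 0.1, so mouse numbers were not treated as pairs. Libraries of a genotype differed by more than sampling noise (lowest chi-square per degree of freedom 3.36, 42 pairs).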

Additional observations from a re-analysis of the deposited data

Results flagged for a closer look

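In 4 of 78 sets of 7 values from 1 group, a mouse stood far from the rest, and chance alone marks about 1 set in 20. Pcdhga9 was 5.08 CPM in WT mouse 3, and 8.31 to 9.74 CPM in the other 6 WT mice. Summed choroid plexus markers were 291 CPM in LPAR2-/- mouse 2, with the next mouse of that label at 52.6 CPM. Summed oligodendrocyte and precursor markers were 3510 CPM in LPAR2-/- mouse 3, with the next at 1790 CPM. Summed meningeal fibroblast markers were 278 CPM in WT mouse 4, with the next WT mouse at 145 CPM. On the CPM scale of this check, Pcdhgb8, Pcdhga4, Pcdhgb6 and Pcdhga11 held no mouse of this kind in either group. LPAR2-/- mouse 6 was still low in Pcdhga11, at 5.49 CPM, with the next mouse of that label at 19.4 CPM. Without mouse 6, the SD of log2 CPM of Pcdhga11 in that group fell from 0.816 to 0.28.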

How the results depend on the processing

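Under edgeR with upper-quartile scaling or with the size factors of DESeq2, under limma-voom, without a filter and with at least 10 counts in every library, the same 3 members were called. DESeq2 called 5 members, 2 of them lower, adding Pcdhga2 and Pcdhgb5, where it called 9.35% of all genes. When mouse numbers entered edgeR as a replicate block, 1 member was called higher (Pcdhgb8, log2 fold change 1.15, adjusted p = 0.0292) and 0 lower by edgeR, as Pcdhga4 (0.54, 0.0935) and Pcdhgb6 (-0.51, 0.0816) missed the threshold, while over all genes 586 were called. Of the mice labelled LPAR2-/-, 3 of 7 were most like the WT mouse of their number. Leaving out 1 mouse at a time gave 1 to 3 members higher, 0 to 3 lower and 0 to 5 without overlap, the last without LPAR2-/- mouse 2, while without WT mouse 2 it was 1 (Pcdhgb6). In these fits 3.79% to 9.26% of all genes were called and 1.95% to 3.21% had no overlap. Pcdhga10 was called without LPAR2-/- mouse 2, Pcdhga2 and Pcdhga3 without mouse 5, Pcdhgb5 without mouse 7, and Pcdhga2 without WT mouse 4. Over all alternatives the median log2 fold change was -0.01 to 0.15 in the alpha, -0.03 to 0.05 in the beta and 0.06 to 0.12 in the gamma cluster. Of 399 refitted log2 fold changes of 19 named members, 386 kept their side of the threshold, 13 lost it and none that was called changed sign. Dividing by the deposited gene length, shared exons included, lowered Pcdhgc5 in WT mice to 27.6 CPM per kb, left it first and moved both Pcdhb9 and Pcdhb17 above Pcdhga11. Counts of the constant exons, and of Pcdha4, Pcdha6 and Pcdha7, cannot be had from the deposited table, in which reads on several genes were not assigned.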
